A study of Homo sapiens with 3 samples.

Results

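The ZSCAN and ZKSCAN genes are the zinc finger genes whose symbols carry the name of the SCAN domain, and their RNA was followed in KYSE150, a cell line established from a human oesophageal squamous carcinoma, after transfection with either of 2 forms of LOXL2. Members were all genes with a probe set of 1 gene symbol whose symbol is ZSCAN or ZKSCAN followed by a number and at most 1 letter. There were 26 such genes among the 18132 genes read by the array. For each, 1 probe set was chosen by its measured values, as the one brightest on average across the arrays, and that average also set which genes were called dim. Of the 28 genes of that name in RefSeq, ZSCAN21 and ZSCAN5C were not analysed here. The choice held 7 ZKSCAN and 19 ZSCAN genes.

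The cells had been transfected with vector (control), with pcDNA3.1 carrying LOXL2 WT or with pcDNA3.1 carrying LOXL2 delta72, a form whose difference from WT is not stated in the labels. RNA was extracted after 48 h. LOXL2 is lysyl oxidase like 2, an amine oxidase that crosslinks collagen and elastin and is also found in the nucleus. Each condition was represented by 1 Affymetrix array, so no difference below has a replicate check, no test was made, and a gene called higher or lower was so on these 3 hybridisations. The share of cells that took up plasmid is not stated in the labels.

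SCAN is a short leucine-rich domain through which these proteins pair with themselves or with other SCAN proteins, and it sits at the front of a protein that ends in a row of DNA-binding Cys-His zinc fingers. ZKSCAN proteins carry a KRAB domain between these parts, which can recruit the corepressor TRIM28 and the histone methyltransferase SETDB1. Most ZSCAN proteins lack KRAB and have no fixed role as activator or repressor, and many members of the family have no known target genes.

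The arrays were on a near-common scale, with medians over all probe sets of 5.95 for control, 5.93 for LOXL2 WT and 5.94 for LOXL2 delta72 (deposited log2 intensity). The brightest probe set of LOXL2 itself read 7.46 with vector, 14.05 with WT and 14.06 with delta72. Further LOXL2 probe sets read 5.06, 10.22 and 10.22, and 5.38, 8.07 and 8.02, in that order. Another read 8.81, 8.32 and 8.66, below control with either form. Of the squamous markers, KRT5 read between 11.27 and 11.62 and SFN between 11.54 and 11.70 on the 3 arrays. The filter value given below was reached by 0 of 5 fibroblast, 2 of 5 leukocyte and 3 of 4 endothelial markers, none with a mean above 6.18. Of all 18132 genes, 12232 reached it. Of 7 squamous markers listed, 5 had a probe set of 1 gene symbol. Of these 5, 4 were below control with either form and DSG3 was above it, at 0.34 and 0.22. Among all genes above the filter value, 51.7% were below control with WT and 49.8% with delta72. KRT14 read 7.76 on the control, 7.08 on the WT and 7.10 on the delta72 array, and DSC3 7.81, 7.28 and 6.95. The differences were -0.67 with WT and -0.66 with delta72 for KRT14 and -0.53 and -0.86 for DSC3. At least 1.5-fold lower were 1 of 5 with WT and 2 of 5 with delta72, beside 0.867% and 0.499% of all genes above the filter value. The part of these markers in the results was not tested.

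The genes were of modest level. A gene was called dim when its mean over the 3 arrays lay below the 40th percentile of such means over the probe sets that are not Affymetrix controls, a log2 intensity of 5.274. By this measure 19 members passed and 7 did not, and of all 18132 genes 12232 passed. The lowest member to pass was ZSCAN1, with a mean of 5.61, and the highest that did not was ZKSCAN7, with a mean of 5.270. The 19 had a median level of 6.73, against 7.98 for the 12232 genes that passed in all and 7.17 for the 309 numbered ZNF genes that passed. Intensities of different probe sets depend on their probes, so the order of levels is one of signal and not of RNA abundance.

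The 7 dim members were ZKSCAN7, ZKSCAN8, ZSCAN4, ZSCAN5B, ZSCAN16, ZSCAN20 and ZSCAN23, and their values ran from 3.32 to 5.32 on the 3 arrays. ZSCAN4, a gene of early embryos and telomere maintenance, read 4.21 on the control, 4.16 on the WT and 4.10 on the delta72 array. Among these dim members the differences ran from -0.33 to 0.21 with WT and from -0.19 to 0.16 with delta72. They were left out of the counts that follow.

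**Figure D1:**
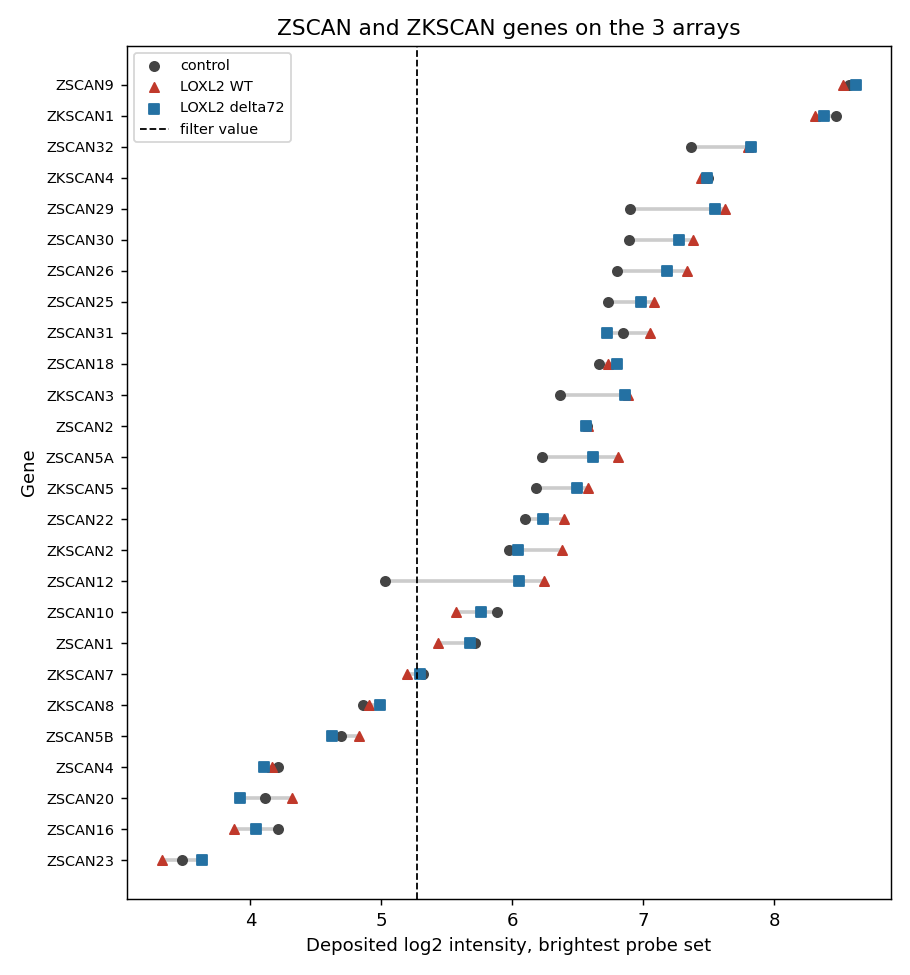
Deposited log2 intensity of the brightest probe set of each of the 26 genes on the control (circle), LOXL2 WT (triangle) and LOXL2 delta72 (square) arrays, ordered by mean, with the filter value as a dashed line. ZSCAN12 is the one gene whose control value lies left of the line while both LOXL2 values lie right of it.

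On the LOXL2 WT array most ZSCAN and ZKSCAN genes read above control, and ZSCAN12 and ZSCAN29 stood highest. The log2 difference was above 0 in 14 of the 19 genes and below 0 in 5, against 48% and 51.7% of all 12232 genes. The median was 0.35, beside -0.01 for all genes, but it was 0.11 when each gene took the median of its probe sets and 0.17 over all 26 members without the filter. At least 1.5-fold higher were 2 of 19 members, ZSCAN12 and ZSCAN29 (background 1.85%), and 0 were at least 1.5-fold lower (background 0.867%). At a smaller size chosen after the values were seen, 1.3-fold, 9 of 19 were higher (background 7.07%) and 0 were lower (background 4.37%). The lowest difference was -0.31, for ZSCAN10.

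With LOXL2 delta72 the same count at least 1.5-fold higher was 2 of 19, again ZSCAN12 and ZSCAN29 (background 1.28%), and 0 were as much lower (background 0.499%). The difference was above 0 in 13 members and below 0 in 6, beside 49.7% and 49.8% of all genes. After a lowess correction 15 were above 0. The median was 0.14, beside 0.00 for all genes, and was 0.25 over the 11 members that a 60th percentile filter keeps. At 1.3-fold, 6 members were higher (background 4.91%) and 0 lower (background 2.66%). Both comparisons use the same control array, so the delta72 values do not repeat the WT values independently, and a low reading on that 1 array would raise both.

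Probe sets on the same arrays give a scale for these sizes. The largest difference among the 23 background probe sets, which match no transcript, was 0.285 in size for WT against control and 0.173 for delta72 against control. In both comparisons that largest difference was a lower reading on the LOXL2 array. The differences of 12 members exceeded it in size with WT (background 21.7%) and those of 9 with delta72 (background 36%). With WT 11 of them were higher (background 12.1%) and 1 lower (background 9.7%). With delta72 all 9 were higher (background 19.3%) and 0 lower (background 16.7%). The passing genes include ZSCAN12, which passed only through its LOXL2 arrays and so had to differ. ZSCAN12 is also in the counts at 1.3-fold and in those beyond the background probe sets, with either form. Without ZSCAN12, 1 of 18 members, ZSCAN29, was at least 1.5-fold higher with either form, and nothing is read from the count of 2. In the same 18 genes, 13 were above 0 with WT and 12 with delta72, and the medians were 0.33 and 0.14.

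**Figure D2:**
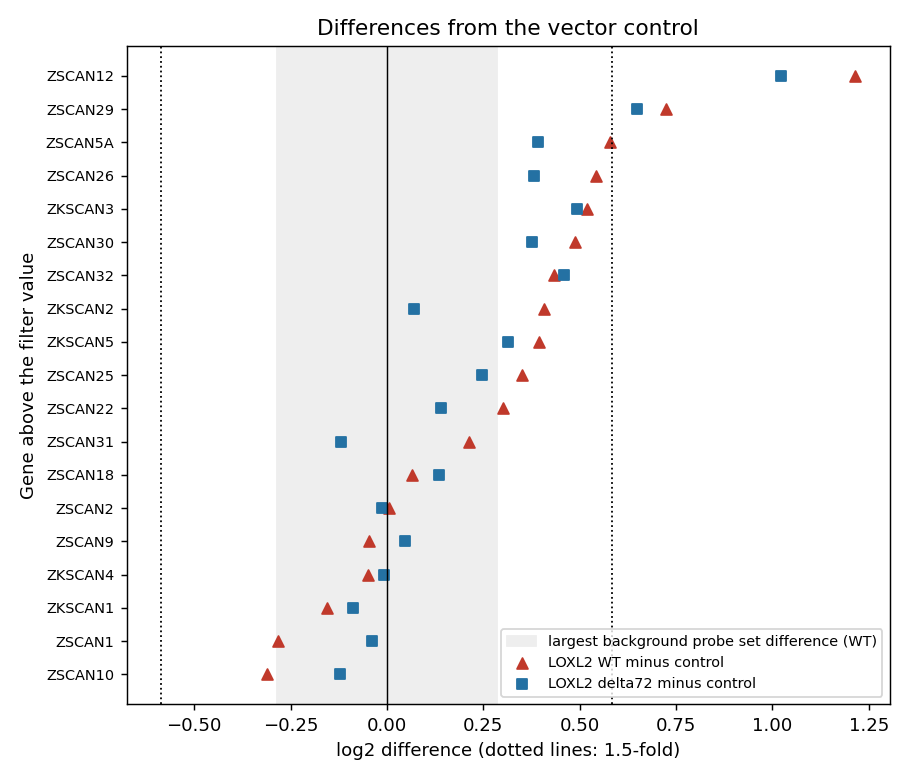
Log2 difference from control of the 19 genes above the filter value, for LOXL2 WT (triangles) and LOXL2 delta72 (squares), ordered by the WT value; dotted lines mark 1.5-fold and the grey band the largest background probe set difference for WT, 0.285. ZSCAN12 and ZSCAN29 lie beyond the right dotted line with both forms, and no gene lies beyond the left one.

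Of the 5 ZKSCAN genes that passed, which join KRAB to SCAN, 0 were at least 1.5-fold higher (background 1.85% with WT and 1.28% with delta72). With so few genes and so low a background, nothing is read from this count. ZKSCAN3, known as a repressor of autophagy and lysosome genes, read 6.37 on the control, 6.89 on the WT and 6.86 on the delta72 array. Both LOXL2 arrays lay above control, by 0.52 and 0.49. Its other probe set gave 0.48 and 0.26 (SD over both 0.03 for WT and 0.17 for delta72). The brighter one has the suffix _s, which Affymetrix uses for probes that can match transcripts of more than 1 gene, and the RefSeq span of ZKSCAN3 overlaps that of ZSCAN31.

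ZKSCAN5 read 6.18 on the control, 6.58 on the WT and 6.50 on the delta72 array. Its differences of 0.39 and 0.31 were not shared by all of its 4 probe sets above the filter value (SD 0.26 and 0.14), and the median over all 6 was 0.11 and 0.17. ZKSCAN2 read 5.97 on the control, 6.38 on the WT and 6.04 on the delta72 array, so that the WT array stood alone above the others. It had 1 probe set above the filter value, and the median over its 5 probe sets was 0.06 with WT.

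ZKSCAN1, the host gene of an abundant circular RNA, was among the brightest members, at 8.47 on the control, 8.31 on the WT and 8.38 on the delta72 array. ZKSCAN4 read 7.49, 7.44 and 7.48 in the same order. Neither differed from control by more than 0.16 in its brightest probe set. The median over the 7 probe sets of ZKSCAN1 was above control with delta72, at 0.23. The 5 ZKSCAN genes above the filter value had a median of 0.39 with WT and 0.07 with delta72. With each form 3 of 5 were above 0, beside 48% of all genes with WT and 49.7% with delta72.

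Both members at 1.5-fold were among the 14 ZSCAN genes that passed (background 1.85% with WT and 1.28% with delta72). ZSCAN12 passed only through its LOXL2 arrays, so no contrast with the ZKSCAN genes is read from this. Both are shown here with the stretch before their transcription start, beside that of ZSCAN9, whose probe sets disagreed. The sequences are the 250 bases before the first start site RefSeq lists for each gene (build GRCh38.p14), written 5′ to 3′ on the gene's strand. Capitals mark CGGAAG, the core recognised by many ETS transcription factors, on either strand, a motif that was picked after these promoters were seen.
ZSCAN12 (chr6:28399748-28399997, minus strand): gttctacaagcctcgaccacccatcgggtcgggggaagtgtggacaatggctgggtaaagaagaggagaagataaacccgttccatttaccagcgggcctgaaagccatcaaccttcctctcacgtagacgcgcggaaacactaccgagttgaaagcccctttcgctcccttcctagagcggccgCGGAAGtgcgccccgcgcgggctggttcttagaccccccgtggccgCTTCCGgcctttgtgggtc
ZSCAN29 (chr15:43371044-43371293, minus strand): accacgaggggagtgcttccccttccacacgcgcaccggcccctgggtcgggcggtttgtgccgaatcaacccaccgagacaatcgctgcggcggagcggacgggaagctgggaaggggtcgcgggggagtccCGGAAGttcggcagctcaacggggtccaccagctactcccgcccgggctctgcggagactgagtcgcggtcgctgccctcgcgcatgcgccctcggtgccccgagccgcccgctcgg
ZSCAN9 (chr6:28224990-28225239, plus strand): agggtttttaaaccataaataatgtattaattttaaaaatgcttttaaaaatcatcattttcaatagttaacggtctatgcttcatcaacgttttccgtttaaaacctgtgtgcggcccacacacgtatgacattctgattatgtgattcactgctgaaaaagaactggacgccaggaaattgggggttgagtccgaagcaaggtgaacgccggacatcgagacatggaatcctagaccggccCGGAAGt

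The brightest probe set of ZSCAN12 read 5.03 on the control, 6.24 on the WT and 6.05 on the delta72 array. Both LOXL2 arrays lay above control, by 1.21 (2.32-fold) and 1.02 (2.03-fold). With each array shifted to a common median the delta72 value was 0.99, short of 2-fold. The control value lay below the filter value, so the fold depends on a reading near background. Its other probe sets did not repeat that size: one read 4.80, 4.80 and 4.58 on the control, WT and delta72 arrays, and the other 3.87, 4.19 and 4.21. All 6 of these readings were below the filter value.

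ZSCAN29, which carries a Myb-like domain besides SCAN, was past 1.5-fold in both of its probe sets. The brighter probe set read 6.90 on the control, 7.62 on the WT and 7.55 on the delta72 array, or 0.72 (1.65-fold) and 0.65 (1.57-fold) above control. The dimmer one read 5.23, 5.95 and 6.03 in that order, or 0.72 and 0.80 above control. The SD over both was 0.006 for WT and 0.10 for delta72. The forms differed from each other by -0.08 and 0.08 in these probe sets.

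ZSCAN9 had the brightest probe set of all members, at 8.57 on the control, 8.53 on the WT and 8.62 on the delta72 array, and this one placed it within 0.05 of control. A dimmer probe set of the gene read 5.59, 6.81 and 6.63, which is 1.22 and 1.04 above control and as large as the ZSCAN12 difference. The third read 5.45, 5.92 and 5.66. The SD over the 3 was 0.64 for WT and 0.53 for delta72, so the gene has no agreed difference on these arrays. The positions of the probes were not used here, and whether the probe sets read different transcripts was not tested.

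**Figure D3:**
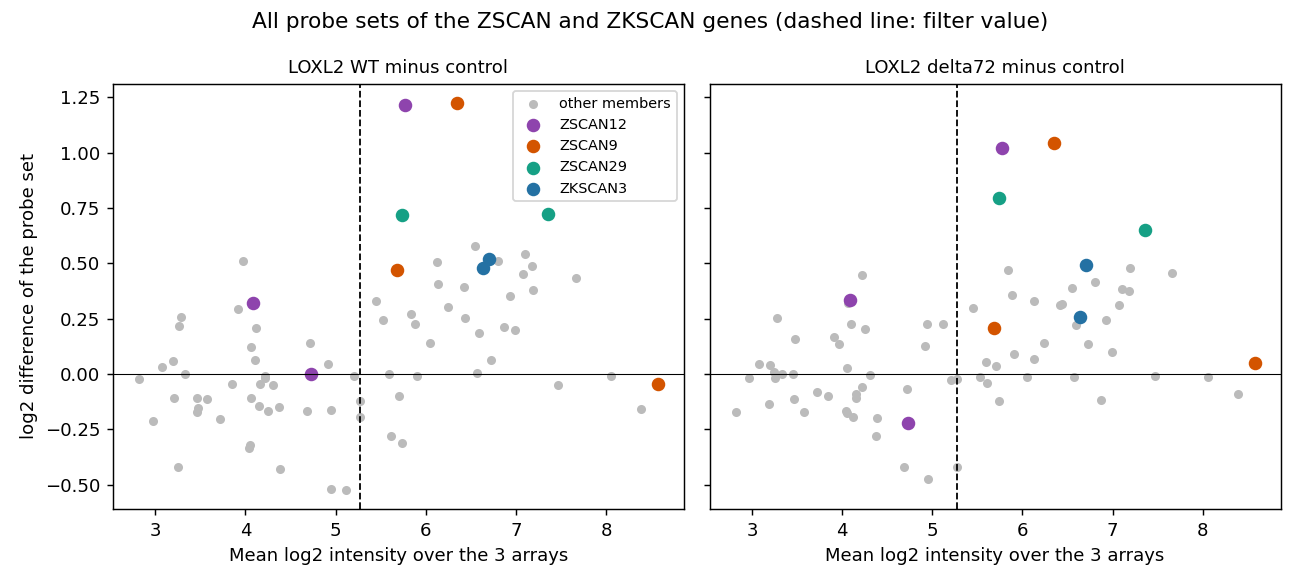
Log2 difference from control against mean log2 intensity for all 81 probe sets of the 26 genes, with LOXL2 WT on the left and LOXL2 delta72 on the right; the dashed line is the filter value. The highest point in both panels is a ZSCAN9 probe set at 1.22 and 1.04, next to ZSCAN12, while the brightest ZSCAN9 probe set lies near 0.

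Several other ZSCAN genes lay between 1.3-fold and 1.5-fold above control with WT. ZSCAN5A read 6.23 on the control, 6.80 on the WT and 6.62 on the delta72 array in its 1 probe set, a difference of 0.58 (1.49-fold) with WT, just short of 1.5-fold, and of 0.39 with delta72. After a lowess correction its WT value was 0.63, past 1.5-fold. ZSCAN26 read 6.80, 7.34 and 7.18 on these arrays. Its differences were 0.54 and 0.38, and all 5 of its probe sets were above control with WT (SD 0.16).

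ZSCAN30 read 6.89 on the control, 7.38 on the WT and 7.27 on the delta72 array, or 0.49 and 0.38 above control. Its second probe set above the filter value gave 0.14 and -0.01, and the median over all 4 was 0.01 and -0.05. ZSCAN32 read 7.36, 7.80 and 7.82, and its differences of 0.43 and 0.46 were close to those of its next probe set (SD 0.04 and 0.01). The median over all 4 of its probe sets, of which the dimmer pair lay below the filter value, was 0.11 and 0.13. Under 1.3-fold, ZSCAN25 was 0.35 and 0.25 above control and ZSCAN22 0.30 and 0.14, with 1 probe set apiece that passed the filter, and the median over both probe sets of ZSCAN22 was -0.07 with delta72.

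The remaining ZSCAN genes were near or below control in their brightest probe sets. ZSCAN18, a gene reported to be methylated in tumours of the digestive tract, read 6.66 on the control, 6.73 on the WT and 6.80 on the delta72 array. Its other probe sets above the filter value were at 0.23 and -0.008 with WT and at 0.36 and 0.09 with delta72. ZSCAN2 read 6.57, 6.58 and 6.56. Its other probe sets above the filter value were at 0.25, 0.27 and -0.002 with WT and at 0.32, 0.47 and 0.05 with delta72. The SD over all 4 was 0.15 and 0.23. ZSCAN10, a factor of pluripotent stem cells, read 5.88, 5.57 and 5.76, which is 0.31 lower than control with WT and 0.12 lower with delta72. ZSCAN1 read 5.72, 5.43 and 5.68. ZSCAN10 and ZSCAN1 were the dimmest genes that passed, and both were lowest on the WT array. The direction of ZSCAN1 with delta72 and of ZSCAN2 with either form turned under another scaling.

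The members' probe sets split by brightness. Of 81, 39 lay above the filter value, and 30 of these were above control with WT and 30 with delta72, beside 48.5% and 49.5% of all probe sets of 1 gene symbol above it. Of the 42 below the filter value, 13 were above control and 28 below it with WT, and 16 and 24 with delta72, beside 39.3% and 42.6% of all such probe sets above control. Over all 81, 43 were above control with WT and 46 with delta72. Of the 10 members with more than 1 probe set above the filter value, 5 had all of them on 1 side of control with WT (ZKSCAN3, ZSCAN26, ZSCAN29, ZSCAN30 and ZSCAN32), and 6 did with delta72 (ZKSCAN3, ZKSCAN5, ZSCAN9, ZSCAN18, ZSCAN29 and ZSCAN32). In each of those cases the side was above control. Probe sets of 1 gene share the arrays and are no replicates.

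Delta72 was then set against WT, a comparison free of the control array. None of the 19 members was at least 1.5-fold higher (background 0.18%) or lower (background 0.0409%) with delta72 than with WT. The difference was below 0 in 12 and above 0 in 7, beside 49.3% and 50.4% of all genes, and the median was -0.08. The largest background probe set difference was 0.152, a higher reading with delta72, and 8 members exceeded it in size (background 20.6%). Of these 8, 6 were lower (background 9.41%) and 2 higher (background 11.2%). This median was -0.045 over all 26 members and -0.026 after the 60th percentile filter. At 1.3-fold too, 0 were lower (background 0.409%) and 0 higher (background 0.842%). The lowest values were those of ZKSCAN2, at -0.34, and ZSCAN31. ZSCAN31 read 6.84 on the control, 7.05 on the WT and 6.72 on the delta72 array, a difference of -0.33 between the forms on 1 probe set. The median over the probe sets of ZKSCAN2 was -0.003. ZSCAN1 had the highest value, 0.24, on the other side.

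**Figure D4:**
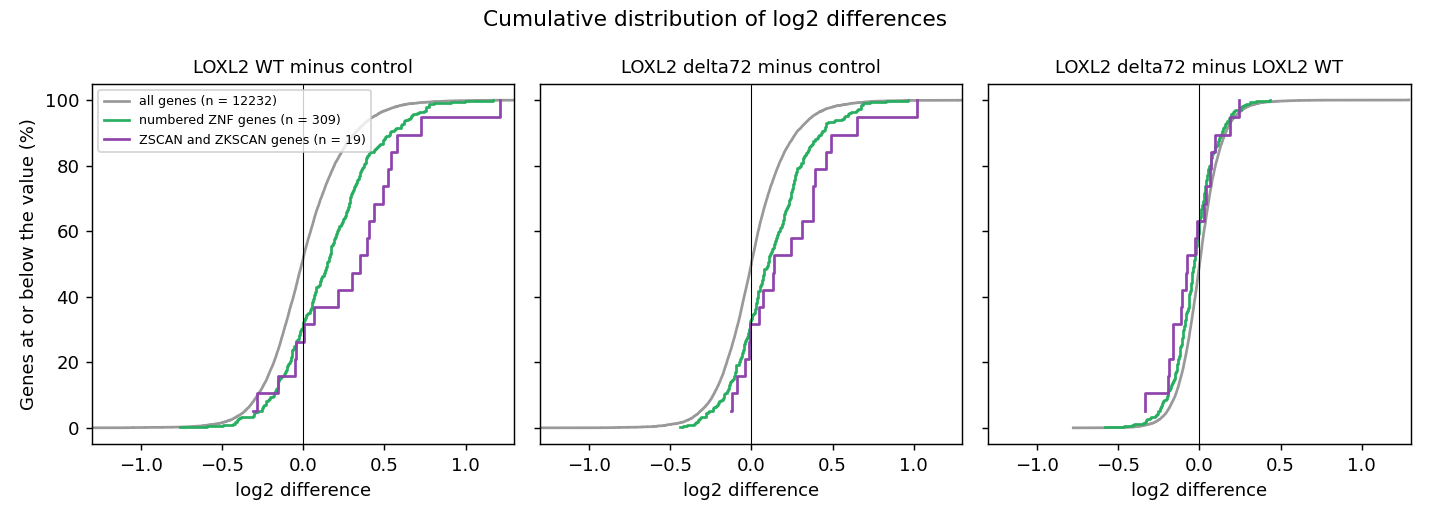
Share of genes at or below each log2 difference, for the 19 ZSCAN and ZKSCAN genes, 309 numbered ZNF genes and all 12232 genes above the filter value, in the 3 comparisons; the horizontal axis is cropped at 1.3 on each side. The family's curve lies to the right of that of all genes at its median in both comparisons with control, at 0.35 and 0.14, and slightly to the left between the forms.

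The family was set beside its nearest relatives. Numbered ZNF genes, most of them zinc fingers without SCAN, had a median of 0.15 with WT and 0.10 with delta72. Of 309, 210 and 206 were above control, beside 48% and 49.7% of all genes. When each gene took the median of its probe sets, the WT medians of the ZNF genes and of the family were 0.10 and 0.11. At least 1.5-fold higher were 26 ZNF genes (8.41%, background 1.85%) with WT and 15 (4.85%, background 1.28%) with delta72. As much lower were 2 and 0 (background 0.867% and 0.499%). The corresponding share of ZSCAN and ZKSCAN genes was 2 of 19 (10.5%) with each form, and 1 of 18 (5.56%) without ZSCAN12. Whether the family differs from the ZNF genes was not tested.

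SCAN genes that carry other names held 1 gene at 1.5-fold with WT (background 1.85%) and 0 with delta72 (background 1.28%). Of 28 listed, 21 passed the filter, with a median of 0.10 with WT (0.0053 without the filter) and 0.16 with delta72 (0.071). Those with a ZNF symbol are also counted among the numbered ZNF genes. Above control were 13 and 15 of 21, beside 48% and 49.7% of all genes. The gene at 1.5-fold was ZNF232, at 0.60 with WT and 0.44 with delta72. ZNF274, which recruits SETDB1 to zinc finger gene clusters, was at 0.51 and 0.42, with an SD over its 3 probe sets above the filter value of 0.34 and 0.38. SCAND1, a SCAN domain without zinc fingers, read 10.53 on the control, 10.43 on the WT and 10.50 on the delta72 array, and MZF1, a myeloid zinc finger factor, was at -0.19 with both forms.

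The corepressor that KRAB recruits showed no such tilt. All 16 listed genes of TRIM28, SETDB1 and the chromatin factors around them passed the filter. Of these, 7 were above control with WT and 8 with delta72, beside 48% and 49.7% of all genes. With WT and delta72, 0 were at least 1.5-fold higher (background 1.85% and 1.28%) or lower (background 0.867% and 0.499%). The medians were -0.02 and -0.0007. TRIM28 read 9.24, 9.27 and 9.27 on the control, WT and delta72 arrays. ATF7IP, a partner of SETDB1, was at 0.45 and 0.23, but its 2 probe sets above the filter value disagreed (SD 0.57 and 0.21). SETDB1 was at -0.28 and -0.27 (SD 0.09 and 0.07 over 2).

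Autophagy and lysosome genes, a class that ZKSCAN3 is reported to repress, did not follow 1 direction. Of 27 above the filter value, 13 were above control with WT and 17 with delta72, beside 48% and 49.7% of all genes. The medians were -0.01 and 0.06. MAP1LC3B, which encodes an autophagosome protein, was the 1 of 27 at 1.5-fold, at 0.64 and 0.74 (background 1.85% and 1.28%). The autophagy receptor gene SQSTM1 was at 0.51 and 0.50. CTSD, a lysosomal protease gene, was lower, at -0.44 and -0.39. Between the forms 21 of 27 were above 0 with delta72 relative to WT, beside 50.4% of all genes. The median of 0.05 was smaller than the largest background probe set difference, 0.152, which was also a higher reading with delta72. The family's own median between the forms, -0.08, was likewise smaller in size, and so was its 0.14 with delta72 beside 0.173. A median over genes and the largest of single probe sets are unlike measures.

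By RefSeq, 9 of the 26 genes lie on chromosome 6, 6 on chromosome 19, 3 each on chromosomes 7 and 16, 2 on chromosome 15 and 1 each on chromosomes 1, 3 and 18. The 6 chromosome 6 members above the filter value had a median of 0.37 with WT and 0.22 with delta72, and the 13 on other chromosomes 0.35 and 0.14. The 6 include ZSCAN12, which passed only through its LOXL2 arrays, so no contrast between the 6 and the 13 is read. Along chromosome 6 the values did not move as a block. ZSCAN9 and ZKSCAN4 lay within 0.05 of control with both forms in their brightest probe sets, the next gene ZSCAN26 at 0.54 and 0.38, ZSCAN31 at 0.21 and -0.12, and then ZKSCAN3 at 0.52 and 0.49 and ZSCAN12 at 1.21 and 1.02.

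**Figure D5:**
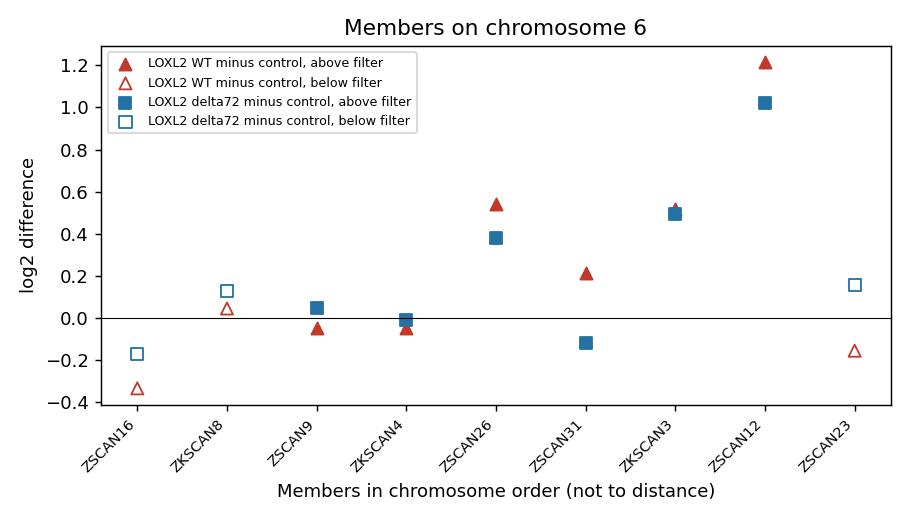
Log2 difference from control of the 9 members on chromosome 6 in chromosome order (not to distance), with LOXL2 WT as triangles and LOXL2 delta72 as squares; open symbols are genes below the filter value. ZSCAN12, at 1.21 and 1.02, stands above its neighbours ZKSCAN3, at 0.52 and 0.49, and ZSCAN23, a dim gene at -0.16 and 0.16.

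Genes next to the members were read as well, up to 3 on each side in the RefSeq order. There were 29 such neighbours that are no members and passed the filter, many of them zinc finger genes. Some, such as ZNF274 and ZNF394, were already counted among the ZNF genes and the SCAN genes of other names, so these sets overlap. Of the 29, 22 were above control with WT and 23 with delta72, beside 48% and 49.7% of all genes, with medians of 0.16 in both. At least 1.5-fold higher with WT were 4 of the 29 (background 1.85%). They were FAM200A near ZKSCAN5, at 0.63, LCMT2 near ZSCAN29, at 0.70, WDR73 near ZSCAN2, at 0.71, and the pseudogene ZNF271P beside ZSCAN30, at 0.76. With delta72 it was 1 of the 29 (background 1.28%), ZNF271P, at 0.73. ZNF789, near ZKSCAN5, was the 1 neighbour as much lower with WT (background 0.867%), at -0.76, and was at -0.44 with delta72. PGBD1, a SCAN gene between the chromosome 6 members, was at 0.32 and 0.34.

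The promoters were searched for 4 sequences on both strands over the 250 bases before the first listed start, which RefSeq gave for 23 of the 26 members and 27305 genes in all. CGGAAG was present in 11 of 23 member promoters (47.8%) and in 16.8% of all promoters. Above the filter value it was in 8 of 17 members, in 27.2% of all genes and in 42.6% of numbered ZNF genes. It was picked after member promoters were seen, so its share among members is not independent of that choice. The ZSCAN12 window holds it 2 times, beginning 65 and 19 bases before the start, the ZSCAN29 window 1 time, 117 bases before it, and the ZSCAN9 window 1 time, 7 bases before it. ZKSCAN1 and ZKSCAN4, which lay near control, hold it too, and ZSCAN5A, ZSCAN30 and ZSCAN32 do not.

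CACCTG, an E-box that Snail factors can bind, was present in 5 of 23 member promoters (21.7%) and in 17.5% of all. CCAAT was present in 7 of 23 (30.4%) and in 33.0% of all. The endoplasmic reticulum stress element, which begins with the same CCAAT, was in 0 of 23 and in 0.0806% of all. The printed windows differ in base composition, with 60.4% G and C for ZSCAN12, 72.0% for ZSCAN29 and 40.8% for ZSCAN9. These matches describe letters in a window and say nothing of binding in these cells.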

How the data were processed

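RNA of KYSE150 cells was read on 3 Affymetrix arrays, 1 per condition, from 100 ng of total RNA per the labels' protocols. The authors deposited 1 table of values for 49395 probe sets, read as log2 intensities from their range of 2.07 to 14.56. Partek and Affymetrix Expression Console are named in the submitters' processing notes, and neither the normalization nor any background correction is stated there or in the labels. Background correction can compress or inflate the differences of dim probe sets. Genes were named from the 44988 probe sets with 1 gene symbol, and 1832 with several symbols and 2473 without a listed one were left out.

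Each gene took its probe set with the highest mean. Genes passed at the 40th percentile (12232). Log2 differences were counted at 1.5-fold, with no test. The SD over a gene's probe sets above the filter value is probe error only. Counting was tested on simulated data with shifts well past 1.5-fold and little noise. That checks the code and not the error of these arrays. Python 3.11.15 with pandas 2.3.3 was used. Members and lists were chosen with earlier results of these data known. The values of all members passing were given, and of other lists the genes past 1.5-fold and up to 3 with the largest differences, with SCAND1, MZF1, SETDB1 and TRIM28 named for their roles. The alternatives were a common median, quantile normalization, lowess, the median over probe sets, no filter and a 60th percentile filter.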

Additional observations from a re-analysis of the deposited data

Results flagged for a closer look

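Probe sets that did not represent their gene carried a signal in 2 members, above the level on the control array. For ZSCAN9 a probe set of middle brightness was 1.22 above control with LOXL2 WT and 1.04 with LOXL2 delta72, whereas the brightest was at -0.05 and 0.05. For ZSCAN29 the dimmer probe set was 0.72 above control with WT and 0.80 with delta72, beside 0.72 and 0.65 in the brighter one.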

How the results depend on the processing

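No paired analysis was possible because each condition has 1 array. When each gene took the median of its probe sets, the members at least 1.5-fold higher fell to 1 with WT and to 1 with delta72, since ZSCAN12 then read 0.32 and 0.34, and the family's median with WT was 0.11. The 60th percentile filter, which keeps 11 members and drops ZSCAN12, left 1 such member with each form, 8 members above control with each form, a delta72 median of 0.25 and a median of -0.026 between the forms. Without ZSCAN12, a choice made after seeing the data, 1 such member was left with each form. Without a filter the family's median was 0.17 with WT, 0.10 with delta72 and -0.045 between the forms, where 11 of 26 were above 0. At 1.3-fold, chosen after seeing the data, the members higher were 9 with WT and 6 with delta72, against 2 and 2. Each of these counts includes ZSCAN12. The lowess correction made ZSCAN5A the 3rd member at 1.5-fold with WT, at 0.63. Over the shifts of scale the family's median ran from 0.31 to 0.38 with WT and from 0.11 to 0.17 with delta72.

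Medians of the other lists also moved by more than 1.5 times. For the SCAN genes of other names the WT median was 0.060 on a common array median, 0.065 with the median of probe sets and 0.0053 without a filter, and the delta72 median 0.077 and 0.071 under the last pair of settings. For the ZNF genes they were 0.074 and 0.053 without a filter, and for the autophagy and lysosome genes 0.024 with delta72 on a common array median. The signal of dim probe sets over background limits what they can show.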

Other observations

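The largest difference between the forms among all 81 probe sets of the family lay in a dim pair of ZKSCAN1. One of them read 5.22 on the control, 4.69 on the WT and 5.44 on the delta72 array, and the other 5.04, 4.52 and 5.27, so that delta72 stood 0.75 above WT in both. The 3 bright probe sets of ZKSCAN1 differed between the forms by 0.07, -0.003 and -0.10. The dim pair lay below the filter value in its mean.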
